A study of Mus musculus with 55 samples.

Results

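DNMT3A and its catalytically inactive partner DNMT3L form the complex that methylates DNA de novo in the growing oocyte. Each protein carries an ADD (ATRX-DNMT3-DNMT3L) domain, a zinc finger fold that binds the tail of histone H3 when lysine 4 is unmethylated and so ties new methylation to chromatin without active promoter marks. The comparison here set fully grown oocytes (FGOs, oocytes that have finished growth and are still arrested before meiotic maturation) with the ADD mutation in DNMT3A alone against FGOs with the ADD mutation in DNMT3L alone. It asked which genes tell the 2 single mutants apart and how alike their RNA is.

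All libraries of both groups were used, 8 Dnmt3a-ADD (Dnmt3a ADA/ADA, Dnmt3L +/+) and 8 Dnmt3L-ADD (Dnmt3a +/+, Dnmt3L D124A/D124A) FGOs, 16 of the 55 samples of the series. Each library was made from the total RNA of 1 oocyte, taken from untreated adult ovaries at 10 to 12 weeks of age after cumulus cells had been washed off. Wild-type FGOs (18) and double mutant FGOs (8, Dnmt3a ADA/ADA and Dnmt3L D124A/D124A) entered the same fit and are given beside the named genes. Both lines were made by CRISPR-Cas9 in zygotes of mixed strain origin, each line goes back to 1 male, and both were backcrossed to C57BL/6J. The mutations are in the germ line, so every cell of the mouse and its ovary carries them. The oocytes were pooled before storage and the number of animals behind each group is not given in the sources used here, so the p-values measure the spread between oocytes and not between animals.

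The 2 alleles replace aspartates at like places of the 2 ADD domains, and the donor oligonucleotides that made them are the only designed difference between the groups. They are shown against the unedited exon (GENCODE M21, mm10, plus strand, 5′ to 3′), with capitals for the bases that differ. The Dnmt3a stretch is chr12:3899587-3899667, in exon 14 of transcript Dnmt3a-201, and the Dnmt3l stretch is chr10:78051992-78052093, in exon 7 of Dnmt3l-205. Both stretches are coding.
Dnmt3a reference exon: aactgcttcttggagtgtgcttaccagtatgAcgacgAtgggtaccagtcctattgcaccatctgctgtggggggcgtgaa
Dnmt3a-ADD donor: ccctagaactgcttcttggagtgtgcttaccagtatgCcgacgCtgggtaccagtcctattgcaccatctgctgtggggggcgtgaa
Dnmt3l reference exon: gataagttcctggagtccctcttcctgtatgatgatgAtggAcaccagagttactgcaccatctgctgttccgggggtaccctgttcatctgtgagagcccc
Dnmt3L-ADD donor: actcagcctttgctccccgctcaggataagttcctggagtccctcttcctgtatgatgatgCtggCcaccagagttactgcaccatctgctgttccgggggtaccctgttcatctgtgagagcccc
Counted from 1 at the 5′ end of each donor, the Dnmt3a donor carries A38C and A44C, which give D525A and D527A. The Dnmt3l donor carries A62C, which gives D124A, and A66C, which leaves the glycine of the next codon as it is. The Dnmt3a guide is shown with its PAM in capitals and lies at chr12:3899605-3899627, across both changed bases.
Dnmt3a guide: gcttaccagtatgacgacgaTGG
Dnmt3l guide, opposite strand: ggtgtccatcatcatcatac
Dnmt3l guide, coding strand: ctcttcctgtatgatgatga
The Dnmt3l guides lie at chr10:78052018-78052037 and chr10:78052010-78052029, and the latter ends on the base of A62C. The counts are totals per gene, so they hold no reading of the edited bases in these oocytes.

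Total counts ran from 9250950 to 18909786 in Dnmt3a-ADD and from 7832458 to 23739871 in Dnmt3L-ADD, with 18997 to 25543 and 19424 to 24321 genes at 1 count or more. No pair of libraries within a group agreed within counting noise (lowest chi-square per degree of freedom 5.39). All 8 Dnmt3L-ADD libraries had at least 80% of reads mapped, as had 5 of the 8 Dnmt3a-ADD libraries, while Dnmt3a-ADD replicates 1, 2 and 8 had less. Of the wild-type libraries, 10 had at least 80% and 8 (replicates 1 to 8) had less, as had all 8 double mutant libraries. The summed level of 23 oocyte markers, such as the zona pellucida genes, was 12436 to 15276 CPM (counts scaled to a common library size) in Dnmt3a-ADD and 13183 to 15890 CPM in Dnmt3L-ADD, and 22 or 23 of them were detected in every library. Markers of granulosa cells (20 genes) summed to 324 to 446 CPM against 287 to 400 CPM, of theca and interstitial cells (15 genes) to 127 to 222 against 119 to 177 CPM, of stroma (16 genes) to 374 to 496 against 318 to 506 CPM, and of endothelium and blood (16 genes) to 111 to 170 against 105 to 128 CPM. The 4 haemoglobin genes of the last list were at 0 counts in all 16 libraries, and the granulosa gene Tnfaip6 was at 0 in all Dnmt3a-ADD libraries.

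Both targeted genes were transcribed at like levels in the 2 mutants. Dnmt3a ran from 304 to 358 CPM in Dnmt3a-ADD (median 324) and from 312 to 358 CPM in Dnmt3L-ADD (median 317), with a log2 difference (Dnmt3a-ADD minus Dnmt3L-ADD throughout) of −0.01 ± 0.06 (SE; 95% interval −0.14 to 0.11). Dnmt3l ran from 118 to 140 CPM (median 131) against 119 to 159 CPM (median 138), a log2 difference of −0.10 ± 0.11 (interval −0.33 to 0.12). The groups overlapped for both genes, and per kilobase of exon the level of Dnmt3l was above that of Dnmt3a in both mutants, at 43.4 ± 2.82 and 46.6 ± 5.50 against 19.5 ± 1.04 and 19.7 ± 1.14 CPM per kilobase (SD, n = 8). Substitutions need not alter the amount of RNA, so these levels are no check of the genotype labels. Antisense genes overlap both (Dnmt3aos and Aire), and whether the counting used strand is not given in the sources used here.

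Few genes told the 2 mutants apart. Of 15726 genes tested, 0 (0.0%) passed both an adjusted p under 0.05 and a fold change over 2 in edgeR's quasi-likelihood test with Benjamini-Hochberg adjustment. At an adjusted p under 0.05 alone, 2 genes passed (0.0127%), Ide and Dpy19l4, both higher in Dnmt3a-ADD. Without adjustment, 1012 genes (6.44%) fell under 0.05, 509 with the higher level in Dnmt3a-ADD (3.24%) and 503 with the lower (3.2%). This even split rested on single oocytes, with 556 higher and 799 lower without Dnmt3a-ADD replicate 4 and 380 against 539 without replicate 8. The count passing both thresholds was 22 in DESeq2 on the same libraries and 28 in edgeR's exact test on the 16 libraries, and the count at adjusted p alone was 46 and 73. In the same fit, 2465 genes (15.7%) differed from wild type at adjusted p under 0.05 in Dnmt3a-ADD and 964 (6.13%) in Dnmt3L-ADD. Those 2 comparisons share their wild-type libraries, and a gene that passed in the first and not in the second is not thereby shown to differ between the mutants.

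**Figure D1:**
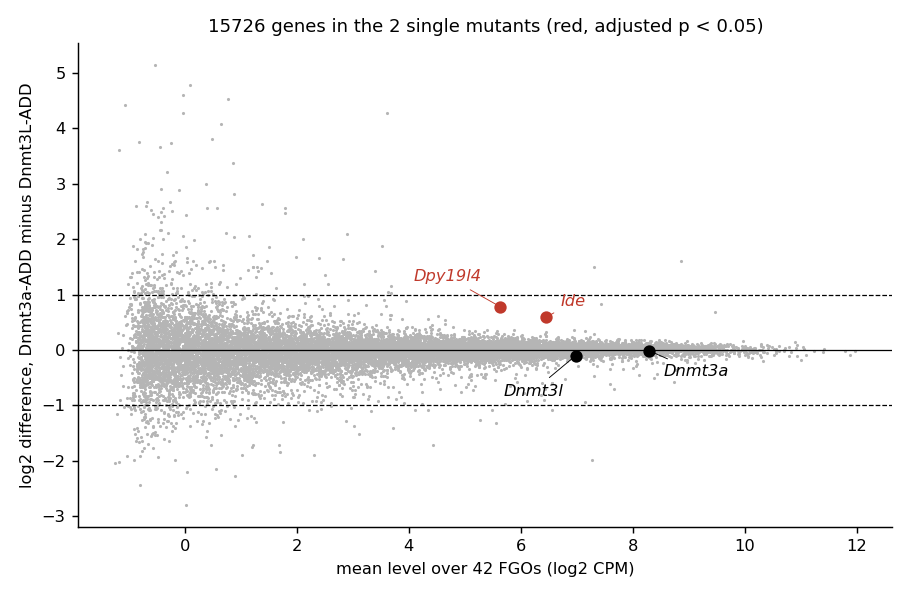
Mean level over the 42 FGO libraries (log2 CPM) against the log2 difference Dnmt3a-ADD minus Dnmt3L-ADD for 15726 genes, 1 point a gene, with dashed lines at 2-fold. Ide and Dpy19l4 (red) are the 2 genes at adjusted p under 0.05, Dnmt3a and Dnmt3l (black) lie near 0, and the spread of the differences widens toward low levels.

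Ide encodes insulin-degrading enzyme, a zinc metalloprotease that cleaves insulin and other short peptides. It ran from 106 to 130 CPM in Dnmt3a-ADD (median 120) and from 64.5 to 86.9 CPM in Dnmt3L-ADD (median 80.6), so the lowest Dnmt3a-ADD oocyte was above the highest Dnmt3L-ADD oocyte. The log2 difference was 0.59 ± 0.06 (SE), or 1.51-fold (95% interval 1.39 to 1.63; edgeR adjusted p = 2.56e-09). Wild-type oocytes ran from 69.4 to 90.7 CPM and double mutants from 75.2 to 91.1 CPM. All 8 Dnmt3a-ADD oocytes were thus above all 34 oocytes of the other 3 genotypes.

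Dpy19l4 encodes a membrane protein of the DPY19 family, which is named after a nematode protein and includes C-mannosyltransferases of the endoplasmic reticulum. It ran from 59.1 to 83.0 CPM in Dnmt3a-ADD (median 71.0) and from 33.1 to 45.8 CPM in Dnmt3L-ADD (median 43.0), again without overlap. The log2 difference was 0.78 ± 0.08 (SE), or 1.72-fold (95% interval 1.55 to 1.91; edgeR adjusted p = 2.56e-09). Wild-type oocytes ran from 36.8 to 52.7 CPM and double mutants from 35.5 to 52.7 CPM, and all 8 Dnmt3a-ADD oocytes were above these 34 too. Per kilobase of exon, Dpy19l4 stood at 8.86 ± 0.98 CPM in Dnmt3a-ADD and Ide at 20.4 ± 1.23 CPM (SD, n = 8).

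The level of both genes set Dnmt3a-ADD apart from the other genotypes, the double mutant with the same Dnmt3a allele included. Both genes were picked by their high level in the Dnmt3a-ADD oocytes, which enter the contrasts with wild type and the double mutant too. The adjusted p of those contrasts are therefore no separate support. For Ide, the log2 difference from wild type was 0.56 ± 0.05 in Dnmt3a-ADD (edgeR adjusted p = 2.97e-11), −0.03 ± 0.05 in Dnmt3L-ADD (adjusted p = 0.782) and 0.02 ± 0.05 in the double mutant (adjusted p = 0.854). For Dpy19l4 these differences were 0.70 ± 0.06 (edgeR adjusted p = 1.92e-10), −0.09 ± 0.06 (0.441) and 0.04 ± 0.06 (0.690). Dnmt3a-ADD was above the double mutant by 0.55 ± 0.06 for Ide (edgeR adjusted p = 2.96e-08) and by 0.65 ± 0.08 for Dpy19l4 (adjusted p = 2.29e-07), 2 of the 4861 genes (30.9%) that differed between these genotypes. The double mutants also went through crosses between the 2 lines, so the Dnmt3L allele and the rest of the genome cannot be told apart in the comparison of Dnmt3a-ADD with the double mutant.

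**Figure D2:**
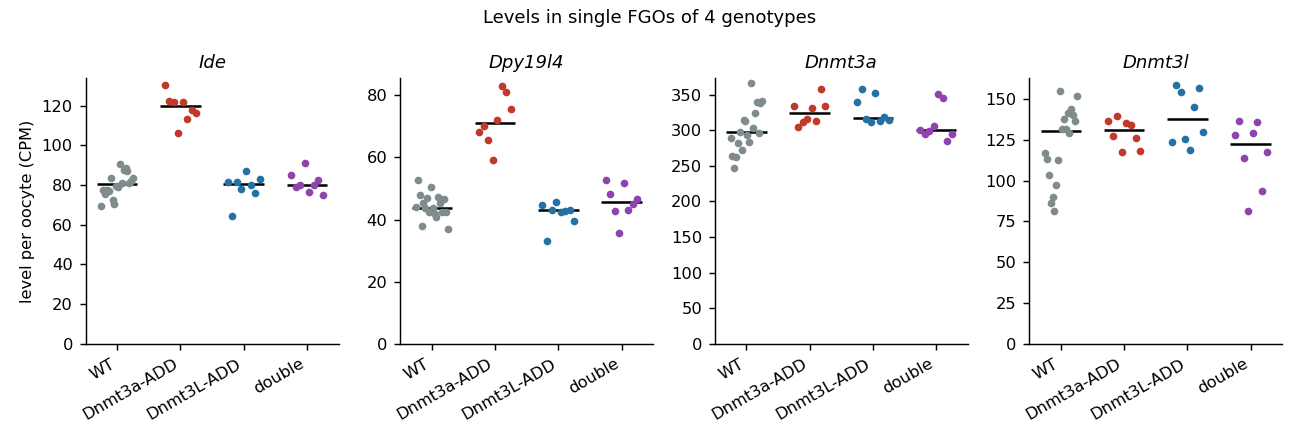
Level per oocyte (CPM, from 0) of Ide, Dpy19l4, Dnmt3a and Dnmt3l in 18 wild-type (WT), 8 Dnmt3a-ADD, 8 Dnmt3L-ADD and 8 double mutant FGOs, 1 point an oocyte and a bar at the median. The Dnmt3a-ADD points lie above all others for Ide (106 to 130 CPM) and Dpy19l4 (59.1 to 83.0 CPM) and overlap the others for Dnmt3a and Dnmt3l.

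Ide lies at chr19:37268743-37337852 and Dpy19l4 at chr4:11261315-11322137 (mm10, both on the minus strand, both protein coding). They are on other chromosomes than Dnmt3a (chromosome 12) and Dnmt3l (chromosome 10). A processed pseudogene, Rpl10-ps6, lies within Ide, and the lincRNA Gm26663 and the snRNA gene Gm22940 overlap Dpy19l4, so reads from these could be counted with them.

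The neighbours of the mutated genes were looked at because the lines were made in mixed-strain zygotes. Of 59 genes tested within 10 Mb of Dnmt3a, 5 (8.47%) had an unadjusted p under 0.05, and of 218 within 10 Mb of Dnmt3l, 16 (7.34%), beside 6.44% of all genes. None of these passed an adjusted p under 0.05 in edgeR's quasi-likelihood fit of 42 libraries. DESeq2 called 1 gene near Dnmt3a, Kif3c, and edgeR's exact test called Kif3c and Rad51ap2. The lowest p near Dnmt3a was that of Kif3c, a kinesin-2 motor subunit, which ran from 1.48 to 3.33 CPM in Dnmt3a-ADD and from 1.06 to 1.69 CPM in Dnmt3L-ADD (log2 difference 0.87 ± 0.23, edgeR adjusted p = 0.144).

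The same count was then made around Ide and Dpy19l4, a choice made after their values were seen. Around Ide, 10 of 165 genes within 10 Mb (6.06%) had an unadjusted p under 0.05, and 0 of 13 within 1 Mb. Around Dpy19l4 it was 12 of 73 genes within 10 Mb (16.4%) and 6 of 24 within 1 Mb (25%), 3 of them higher and 3 lower in Dnmt3a-ADD. The next gene to Dpy19l4 is Ints8, a subunit of the Integrator complex that cleaves small nuclear and other nascent RNAs. Ints8 ran from 85.4 to 112 CPM in Dnmt3a-ADD and from 78.6 to 93.2 CPM in Dnmt3L-ADD (log2 difference 0.25 ± 0.06, edgeR adjusted p = 0.0802), and 7 of 8 Dnmt3a-ADD oocytes were above all Dnmt3L-ADD oocytes. Farther off lie Car8, a carbonic anhydrase-related protein without enzyme activity (3.02 Mb, log2 difference −0.76 ± 0.16, edgeR adjusted p = 0.0611), and the predicted gene Gm11867 (7.09 Mb, −0.87 ± 0.18, adjusted p = 0.0611). In the fit of 42 libraries no neighbour within 10 Mb of Ide or Dpy19l4 passed an adjusted p under 0.05. DESeq2 and edgeR's exact test each called 3 near Dpy19l4 (Ints8, Car8 and Gm11867) and 1 near Ide (Scd2), and the quasi-likelihood fit of 16 libraries called Car8 and Scd2. Sequence differences between the lines at these places were not tested.

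**Figure D3:**
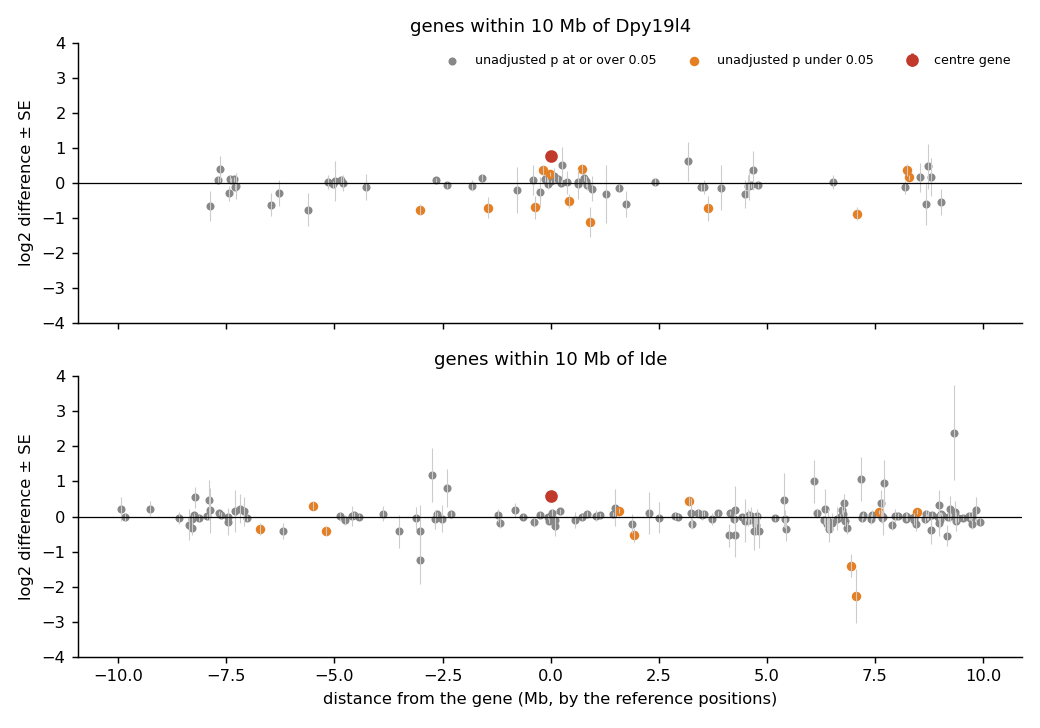
Log2 difference Dnmt3a-ADD minus Dnmt3L-ADD (± SE) of each tested gene within 10 Mb of Dpy19l4 (top) and Ide (bottom) against its distance from that gene in Mb. Orange points have an unadjusted p under 0.05 (12 of 73 and 10 of 165), the red point is the centre gene, and orange points near Dpy19l4 lie on both sides of 0.

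How alike the mutants were could be read from the intervals of the differences. The median size of the log2 difference was 0.10 over all genes and 0.06 over the 8249 genes of at least 10 CPM. Among the latter, the 95% interval lay within 2-fold in either direction for 8171 genes (99.1%) and within 1.5-fold for 7752 (94.0%). Over all 15726 genes it lay within 2-fold for 12433 (79.1%), and among the 2552 genes under 1 CPM for 472 (18.5%). For most genes under 1 CPM, a 2-fold difference was therefore not excluded at this depth and spread.

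As whole profiles, the 2 groups lay about as far from each other as oocytes of 1 group did. The distance between 2 oocytes, the root mean square log2 difference of the 500 genes that differed most between them, averaged 2.63 within Dnmt3a-ADD (28 pairs), 2.47 within Dnmt3L-ADD (28 pairs) and 2.62 between the groups (64 pairs). The mean between groups exceeded the mean within them by 0.065 (exact permutation test over all 12870 splits of the 16 oocytes, one-sided p = 0.0309). With only the 5 Dnmt3a-ADD libraries of at least 80% mapped reads this excess was 0.040 (exact permutation p = 0.120), and leaving out single oocytes gave 0.0386 to 0.1005 (p from 0.000777 without Dnmt3a-ADD replicate 4 to 0.0990 without Dnmt3a-ADD replicate 3). The nearest oocyte was of the same genotype for 4 of 8 Dnmt3a-ADD and 6 of 8 Dnmt3L-ADD oocytes. On average over partners, all 8 Dnmt3L-ADD oocytes were closer to their own genotype, and 4 of 8 Dnmt3a-ADD oocytes were.

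The spread within Dnmt3a-ADD was wider than within Dnmt3L-ADD, which was the narrowest of the genotypes by the coefficient of variation. The biological coefficient of variation was 23.7% over the Dnmt3a-ADD and 18.3% over the Dnmt3L-ADD libraries, given as a description. It was 23.7% over the double mutant and 28.3% over the wild-type libraries. Pearson's r of log2 CPM between 2 oocytes ran from 0.961 to 0.980 within Dnmt3a-ADD, from 0.969 to 0.981 within Dnmt3L-ADD and from 0.959 to 0.983 between them, across genes, which are not independent. Dnmt3a-ADD replicate 8 lay farthest from its own group (mean distance 2.97), and replicates 1, 4, 5 and 6 lay nearer to the Dnmt3L-ADD oocytes, replicate 4 by the most (mean distance 2.42 against 2.68 to its own group).

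**Figure D4:**
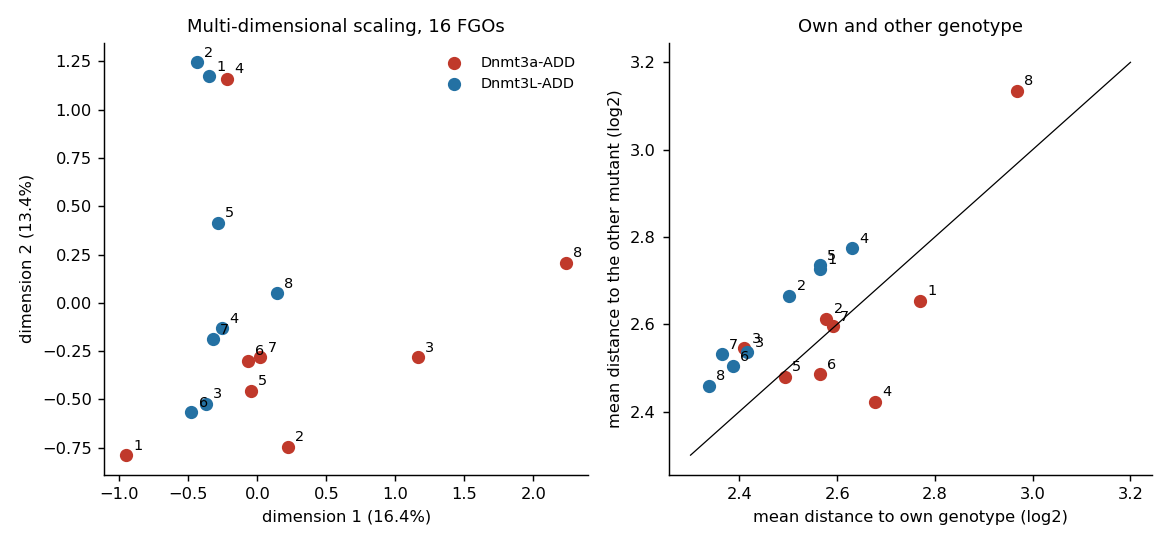
Left, multi-dimensional scaling of the 16 oocytes by the distance of the 500 largest differences (dimension 1 holds 16.4% and dimension 2 13.4% of the positive eigenvalues), with replicate numbers. Right, mean distance of each oocyte to its own genotype (x) and to the other mutant (y), in log2 units, with the line of equality: all 8 Dnmt3L-ADD oocytes lie above the line, while Dnmt3a-ADD replicates 1, 4, 5 and 6 lie below it, and replicate 8 is farthest out.

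Many of the largest fitted differences toward Dnmt3a-ADD came with a high level in replicate 8. A fitted difference over 2-fold was reached by 378 genes (2.40%), 210 higher (1.34%) and 168 lower (1.07%) in Dnmt3a-ADD, and none of them was among the 2 genes at adjusted p under 0.05 in edgeR. For 162 of the 210 the highest oocyte was Dnmt3a-ADD replicate 8, and for 76 of the 210 a single oocyte held more of the group's summed CPM than its other oocytes together, as for 23 of the 168 lower genes in Dnmt3L-ADD. The following genes were chosen after their values were seen. Xist, the RNA that coats the inactive X chromosome of female somatic cells, was at 165 CPM in replicate 8, at 0 to 50.3 CPM in the other Dnmt3a-ADD oocytes and at 0.46 to 6.29 CPM in Dnmt3L-ADD. Col1a2, a chain of type I collagen of connective tissue, was at 26.8 CPM in replicate 8, at 0 to 10.0 CPM in the other 7 and at 0 to 2.21 CPM in Dnmt3L-ADD. Malat1, an abundant nuclear noncoding RNA, was at 939 CPM in replicate 8, at 28.1 to 365 CPM in the other 7 and at 38.3 to 127 CPM in Dnmt3L-ADD.

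Replicate 8 thus stood highest for a nuclear RNA, an X-linked RNA of somatic cells and a collagen. Fshr, the receptor for follicle stimulating hormone on granulosa cells, was high in another oocyte, at 9.25 CPM in replicate 6 against 0 to 0.68 CPM in the other 7. Other granulosa genes went the other way, and Inhbb, Hsd17b1, Ptgs2 and Amh were over 2-fold lower in Dnmt3a-ADD. Of 18 granulosa genes tested, 7 were nominally higher and 11 lower. An unadjusted p under 0.05 in edgeR was reached by 1 and 3 of these, beside 3.24% and 3.2% of all genes. The summed granulosa markers of replicate 8 were the highest of the Dnmt3a-ADD libraries (446 CPM against 324 to 396 CPM), as were its theca markers (222 CPM). Its stroma markers (461 CPM) were below those of replicate 3 (496 CPM), and its endothelium and blood markers summed to 119 CPM, in the lower part of their range. Without replicate 8, 124 genes were over 2-fold higher and 237 over 2-fold lower, and without replicate 4 these counts were 258 and 345. In both cases Ide and Dpy19l4 remained among the genes at adjusted p under 0.05. Whether these RNAs came from cells other than the oocyte was not tested.

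A second tier of genes passed in a fit on the 16 mutant libraries, without wild-type and double mutant FGOs. In that fit 11 genes had an adjusted p under 0.05, Ide and Dpy19l4 higher in Dnmt3a-ADD and 9 lower, named here after their values were seen. In the fit of all 42 libraries those 9 had adjusted p from 0.0611 to 0.168. DESeq2 on the 42 libraries called 6 of the 9 (Cyb5r3, Kif5b, Dhx9, Scd2, Kctd14 and Car8), and Cyb5r3, Kctd14 and Car8 also passed in some edgeR fits with 1 or 2 oocytes left out or, for Cyb5r3, without a filter. Ccnd2, Aqp9 and Dsp passed in none of the 23 alternatives that kept all 4 genotypes. Cyb5r3, an NADH-dependent reductase of cytochrome b5, ran from 30.4 to 52.3 CPM in Dnmt3a-ADD (median 37.9) and from 59.5 to 91.2 CPM in Dnmt3L-ADD (median 78.8). The log2 difference was −0.92 ± 0.19 (edgeR adjusted p = 0.0611 with 42 libraries). Its range in wild-type oocytes, 39.0 to 135 CPM, spanned most of both groups, and double mutants, at 46.4 to 75.6 CPM, overlapped both.

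Kif5b, the heavy chain of the conventional kinesin motor, ran from 66.7 to 94.0 CPM in Dnmt3a-ADD (median 81.2) and from 100 to 156 CPM in Dnmt3L-ADD (median 113), without overlap (log2 difference −0.60 ± 0.16, edgeR adjusted p = 0.144). Here wild type (44.99 to 149 CPM, median 79.9) lay about where Dnmt3a-ADD did, and the log2 difference from wild type was −0.10 in Dnmt3a-ADD (adjusted p = 0.638) and 0.50 in Dnmt3L-ADD (edgeR adjusted p = 0.0165). For Cyb5r3 the log2 difference from wild type was −1.09 in Dnmt3a-ADD (edgeR adjusted p = 1.73e-05) and −0.17 in Dnmt3L-ADD (adjusted p = 0.547). Both genes were picked by their difference between the mutants, whose oocytes enter the contrasts with wild type too. These adjusted p are therefore no separate support for which mutant differed.

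Scd2, a desaturase that makes monounsaturated fatty acids, ran from 3.89 to 9.02 CPM in Dnmt3a-ADD and from 11.04 to 32.9 CPM in Dnmt3L-ADD, without overlap (log2 difference −1.40 ± 0.33, edgeR adjusted p = 0.0961). Ccnd2, cyclin D2 of the G1 phase, ran from 16.5 to 125 CPM against 113 to 329 CPM (−1.99 ± 0.54, adjusted p = 0.155). Dhx9, an RNA and DNA helicase, ran from 31.6 to 64.0 CPM against 55.7 to 85.9 CPM (−0.77 ± 0.20, adjusted p = 0.144). For Ccnd2 and Dhx9 the overlap came from 1 oocyte a side, Dnmt3a-ADD replicate 4 being the highest of its group and Dnmt3L-ADD replicate 6 the lowest of its own.

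Kctd14, a protein with a BTB-type domain, ran from 1.15 to 6.26 CPM in Dnmt3a-ADD and from 4.68 to 17.1 CPM in Dnmt3L-ADD (log2 difference −1.89 ± 0.46, edgeR adjusted p = 0.119). Dsp, desmoplakin of cell junctions, ran from 13.7 to 40.7 CPM against 33.3 to 99.9 CPM (−1.31 ± 0.37, adjusted p = 0.168). Aqp9, a channel for water and glycerol, ran from 28.6 to 43.1 CPM against 39.97 to 56.1 CPM (−0.48 ± 0.13, adjusted p = 0.155). Car8 ran from 6.31 to 12.7 CPM against 12.1 to 20.9 CPM. In all 9 genes at least 5 Dnmt3a-ADD oocytes lay below every Dnmt3L-ADD oocyte, while wild-type oocytes overlapped both groups in each. None of the 9 passed an adjusted p under 0.05 with only the Dnmt3a-ADD libraries of at least 80% mapped reads, a fit with 5 instead of 8 such oocytes, although each kept its direction.

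**Figure D5:**
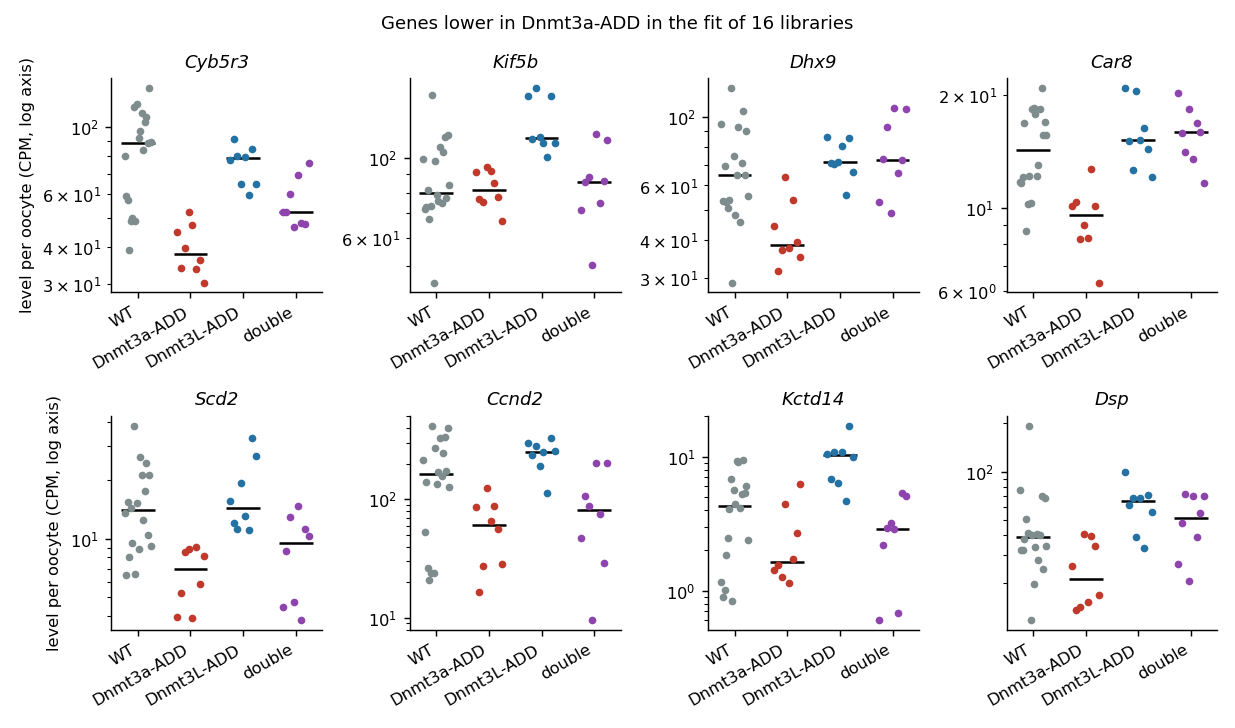
Level per oocyte (CPM, log axis) of 8 of the 9 genes that were lower in Dnmt3a-ADD in the fit of 16 libraries, in wild-type (WT, 18), Dnmt3a-ADD (8), Dnmt3L-ADD (8) and double mutant (8) FGOs, with a bar at the median. Dnmt3a-ADD and Dnmt3L-ADD points do not overlap for Cyb5r3, Kif5b and Scd2. The WT points spread more widely than either mutant, but they are 18 against 8 and come from libraries of both mapped classes.

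Beside these tests, the 8 values of the 2 mutants did not overlap for 12 genes (0.0763%), 6 with Dnmt3a-ADD above (0.0382%) and 6 with Dnmt3L-ADD above (0.0382%). Ide, Dpy19l4, Cyb5r3, Kif5b and Scd2 are among them. Some of the others differ by little but in every oocyte. Sgsm1, a modulator of small GTPase signalling, ran from 172 to 193 CPM in Dnmt3a-ADD and from 153 to 169 CPM in Dnmt3L-ADD (log2 difference 0.19 ± 0.04, edgeR adjusted p = 0.0802). Inpp5d, the inositol phosphatase SHIP1, ran from 63.7 to 75.8 CPM against 54.8 to 62.6 CPM (0.20 ± 0.05, adjusted p = 0.130), and wild type lay lower, at 43.8 to 55.6 CPM. The difference from wild type was 0.42 in Dnmt3a-ADD (edgeR adjusted p = 1.13e-09) and 0.23 in Dnmt3L-ADD (adjusted p = 0.000603). Inpp5d was picked by its difference between the mutants, whose oocytes enter these contrasts too, so these adjusted p are no separate support.

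Rnu12, the U12 RNA of the minor spliceosome, ran from 12.4 to 16.2 CPM in Dnmt3a-ADD and from 7.66 to 11.5 CPM in Dnmt3L-ADD (log2 difference 0.51 ± 0.23, edgeR adjusted p = 0.718). Tmem38b, an intracellular cation channel, ran from 25.3 to 28.8 CPM against 29.98 to 34.04 CPM (−0.25 ± 0.08, adjusted p = 0.279). The others were Grid1 with Dnmt3a-ADD above, and 2610524H06Rik and Hist1h2ai with Dnmt3L-ADD above. Hist1h2ai was under 1 CPM in all 16 oocytes.

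The machinery that lays down, copies or removes DNA methylation held no gene that passed in this comparison. Of 21 genes of that list tested, 0 passed an adjusted p under 0.05, 9 were nominally higher and 12 lower in Dnmt3a-ADD, and the median log2 difference was −0.01 (0.00 over all genes tested). The 95% interval lay within 2-fold for 20 of the 21. An unadjusted p under 0.05 was reached by 4 of the 21 (3 higher, 1 lower), beside 6.44% of all genes tested. Dnmt1, the maintenance methyltransferase and the member of highest level, ran from 3649 to 4669 CPM against 3757 to 4533 CPM (log2 difference −0.01 ± 0.07). Uhrf1, which recruits it to hemimethylated DNA, gave −0.09 ± 0.05, and Dppa3, a maternal protein that guards methylation in the zygote, −0.07 ± 0.07. Nsd3, which methylates histone H3 at lysine 36, gave 0.17 ± 0.05 (edgeR adjusted p = 0.301), and Setd2, the trimethylase of that residue, −0.23 ± 0.09 (adjusted p = 0.576).

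Writers and erasers of H3K4 methylation, the mark that ADD domains avoid, gave 0 of 16 genes at adjusted p under 0.05 in edgeR and a median of −0.01. Kmt2d, their member of highest level, ran from 1404 to 1827 CPM against 1496 to 1748 CPM (log2 difference −0.06 ± 0.06). Kdm1b, the H3K4 demethylase needed for maternal imprints, ran from 202 to 601 CPM in Dnmt3a-ADD and from 264 to 559 CPM in Dnmt3L-ADD (−0.32 ± 0.20), a wide range in both. The difference was −0.53 without Dnmt3a-ADD replicate 4 and −0.06 with the 5 Dnmt3a-ADD libraries of at least 80% mapped reads. Kmt2a gave 0.90 ± 0.42 with its highest value, 27.9 CPM, in Dnmt3a-ADD replicate 8, and Ash2l, a shared subunit of these enzymes, 0.21 ± 0.08 (adjusted p = 0.557).

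Oocyte genes were close in the 2 mutants, more of them on the lower side in Dnmt3a-ADD. Of 22 oocyte markers tested, 0 passed, the median was −0.05, and all 22 intervals lay within 2-fold. Of these markers 16 were nominally lower (7665 of all 15726 genes tested). An unadjusted p under 0.05 was reached by 2, both lower (3.2% of all genes). Gdf9, a growth factor by which the oocyte acts on its follicle and the marker of highest level, ran from 1492 to 2025 CPM (median 1598) against 1683 to 2198 CPM (median 1862), with 6 of 8 Dnmt3a-ADD oocytes below all Dnmt3L-ADD oocytes (log2 difference −0.18 ± 0.06, edgeR adjusted p = 0.372). Beside it, the difference from wild type was −0.36 in Dnmt3a-ADD (edgeR adjusted p = 5.73e-06) and −0.18 in Dnmt3L-ADD (adjusted p = 0.0308). Zp3, which encodes a zona pellucida protein, gave −0.17 ± 0.08 (adjusted p = 0.744).

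Genes that store, mask or decay maternal mRNA (22 tested) gave 0 at adjusted p under 0.05 in edgeR, 1 in DESeq2 (Ybx2, lower in Dnmt3a-ADD), and a median of 0.02. Among them Dcp1a, a decapping cofactor and the member of highest level, gave 0.03 ± 0.10, and Ybx2, which packages stored mRNA in the oocyte, −0.24 ± 0.06 (edgeR adjusted p = 0.130; 215 to 315 CPM against 294 to 370 CPM). Meiosis genes (25 tested) gave 0, with a median of 0.00 and all 25 intervals within 2-fold, and Bub1b, a spindle checkpoint kinase and their member of highest level, gave −0.04 ± 0.12. Genes of the piRNA pathway (19 tested) gave 0 and a median of 0.02, with Tdrd1, a Tudor domain scaffold, highest and at 0.00 ± 0.06.

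Imprinted genes were looked at because the complex lays down maternal imprints in the growing oocyte, which act on these genes in the embryo. Of 33 tested, 0 passed an adjusted p under 0.05 in edgeR, 19 were nominally higher and 14 lower in Dnmt3a-ADD, and the median was 0.02. Igf2r, the member of highest level, ran from 181 to 281 CPM against 183 to 250 CPM (log2 difference −0.09 ± 0.09), and Mest gave 0.12 ± 0.08. Kcnq1 ran from 29.7 to 35.8 CPM against 23.2 to 31.8 CPM (0.28 ± 0.08, adjusted p = 0.159). Kcnq1ot1, the noncoding RNA transcribed from the imprinting control region within Kcnq1, gave 1.88 ± 0.66 (edgeR adjusted p = 0.432). Its level was 108 CPM in Dnmt3a-ADD replicate 8, 3.44 to 26.0 CPM in the other 7 and 3.22 to 11.7 CPM in Dnmt3L-ADD.

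Among the housekeeping lists, ribosomal proteins (87 tested, median 0.01), subunits of oxidative phosphorylation (89, median 0.00) and the proteasome (36, median 0.03) gave 0 genes at adjusted p under 0.05 in edgeR. Genes named Zfp, mostly zinc finger proteins (343, median 0.02), and predicted genes and RIKEN clones (2295, median −0.02) gave 0 as well, where DESeq2 called 1 and 6 and the exact test 1 and 11. Histone genes (42) gave 0, with a median of −0.12. Of them 28 were nominally lower (7665 of all 15726 genes tested). An unadjusted p under 0.05 was reached by 6, all lower in Dnmt3a-ADD (3.2% of all genes). The list of small noncoding RNA genes held many small nucleolar RNAs. It also held other kinds, such as Rn7sk and Rmrp, and the microRNA host genes Mir17hg, Mir22hg and Mir99ahg. It gave 0 of 61 at adjusted p under 0.05 in edgeR's quasi-likelihood fit, 1 in DESeq2 (Rnu3a) and 3 in the exact test (61 of 1544 listed passed the filter on low counts). Of the 61, however, 51 were nominally higher and 20 had an unadjusted p under 0.05, all higher in Dnmt3a-ADD (3.24% of all genes). The median log2 difference of the list was 0.68 with all oocytes and 0.32 without Dnmt3a-ADD replicate 8. In that oocyte the median member stood 1.54 above the mean of the 16 oocytes on the log2 scale. Without that oocyte 6 of 60 had an unadjusted p under 0.05 in that direction. Whether these counts came from the small RNAs themselves or from longer transcripts across the same places was not tested.

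Lists of other cell types gave 0 genes at adjusted p under 0.05 in edgeR (1 in DESeq2, the stroma gene Col1a2) among 18 granulosa, 12 theca, 12 stroma, 5 endothelium and blood, and 16 immediate early genes tested, with medians of −0.02, 0.07, 0.14, 0.09 and −0.07. Without Dnmt3a-ADD replicate 8 the granulosa median was −0.35 and the stroma median −0.07. Their members of highest level were Serpine2 (log2 difference 0.04 ± 0.08), Prlr (0.10 ± 0.14), Myh11 (0.10 ± 0.13), Pecam1 (0.17 ± 0.10) and Dusp1 (−0.07 ± 0.10), none of them with adjusted p under 0.05. Intervals within 2-fold were fewer here, 3 of 12 for stroma and 6 of 18 for granulosa genes, and 3 genes of each of these lists had a mean under 1 CPM.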

How the data were processed

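Single FGOs were processed with a SMART-Seq HT kit. The authors aligned the reads with STAR to mm10 and counted them per gene (featureCounts in the methods, HTSeq in the submitters' processing notes), and deposited raw counts, 1 file per oocyte. Strand setting, annotation release and treatment of reads with several positions are not given in the sources used here. The 37 mitochondrial genes held 0 counts throughout.

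From these counts, 42 FGO libraries were fitted in R 4.3.3 with edgeR 4.0.16 (quasi-likelihood test with 1 coefficient per genotype, TMM, and the filterByExpr filter at 10 counts), and Dnmt3a-ADD minus Dnmt3L-ADD was tested with Benjamini-Hochberg adjustment over 15726 genes. CPM were computed on the normalized library sizes, log2 CPM with a prior count of 2. DESeq2 1.42.0, edgeR's exact test, other filters and normalizations, and leaving out oocytes served as alternatives. Libraries of meiosis II oocytes and of embryos (13 samples) were not used. The fit was tested on simulated data. Plots were drawn with matplotlib 3.10.9.

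Named by rule were Dnmt3a, Dnmt3l, the genes at adjusted p under 0.05 (at most 12 a direction), and in each list given by name the member of highest level and members at adjusted p under 0.05 (at most 4). Other genes were chosen after their values were seen, and 1 of these is not reported here. The groups compared and the lists were chosen with earlier results of these data known. Sequences of the reference come from GENCODE M21, donors and guides from the study's supplementary tables. Symbols and positions of 13436 of the 15726 genes are the same in GENCODE M21.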

Additional observations from a re-analysis of the deposited data

Results flagged for a closer look

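Values of each named gene and list were compared within each group of 8 oocytes, and a value was taken as standing apart when its gap to the next exceeded Dixon's 95% critical value of 0.526 of the range. For normally distributed values, chance alone puts about 1 in 20 groups past that value. Genes were compared in CPM, which need not be normally distributed, so the rate expected by chance here is not known. Of 164 groups tested, 23 stood apart.

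Dnmt3a-ADD replicate 8 stood apart as the highest of its group for Xist (165 CPM, the others at 50.3 or less), Malat1 (939 CPM, 365 or less), Kcnq1ot1 (108 CPM, 26.0 or less), Rnu3a (45.8 CPM, 8.56 or less), Col1a2 (26.8 CPM, 10.0 or less), Col3a1 (20.6 CPM, 8.05 or less), Rnu12 (16.2 CPM, 13.6 or less), Col11a1 (5.58 CPM, 2.01 or less), Peg13 (3.44 CPM, 0.91 or less) and the median of the small noncoding RNA genes (1.54 log2 above the 16-oocyte mean, 0.37 or less). Several of these genes were chosen because they were high there, so their number says nothing of how often this oocyte stands apart.

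Other Dnmt3a-ADD oocytes stood apart singly. Replicate 4 was lowest for the median of the histone genes (−0.40 log2) and of the ribosomal protein genes (−0.16) and highest for Alpk3 (30.4 CPM). Replicate 6 was highest for Fshr (9.25 CPM) and Zfp445 (71.7 CPM), replicate 7 for Grid1 (17.4 CPM) and replicate 1 for Gm11867 (2.43 CPM), and replicate 1 was lowest for the median of predicted genes (−0.0852). In Dnmt3L-ADD, replicate 8 was highest for Xist (6.29 CPM) and Col1a2 (2.21 CPM), replicate 7 for Tdrd1 (774 CPM) and replicate 4 for Col11a1 (0.26 CPM), and replicate 2 was lowest for Hells (137 CPM).

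For Ide and Dpy19l4, the log2 differences between the 4 groups did not add up. The difference Dnmt3a-ADD minus wild type was set against the difference double mutant minus Dnmt3L-ADD. The first exceeded the second by 0.52 ± 0.07 for Ide (SE, edgeR quasi-likelihood contrast of the 4 genotypes, adjusted p = 1.61e-06). For Dpy19l4 it did so by 0.57 ± 0.10 (edgeR adjusted p = 3.71e-05). Both genes had been picked by their high level in Dnmt3a-ADD, which enters this contrast too, and animal, cross and genotype cannot be told apart.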

How the results depend on the processing

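Ide and Dpy19l4 kept their direction and an adjusted p under 0.05 in all 26 alternatives, at log2 0.55 to 0.61 and 0.74 to 0.81. The count of genes past adjusted p under 0.05 and 2-fold, 0 with 42 libraries, was 22 with DESeq2, 28 with edgeR's exact test, 4 with the 16 mutant libraries in the quasi-likelihood fit, 2 without a filter on low counts, 0 to 1 with 1 oocyte left out, and 1 without Dnmt3a-ADD replicates 4 and 8, a choice made after seeing the data. The count at adjusted p alone, 2, was 46, 73, 11 and 5 in the first 4 of these and 2 to 7 with 1 oocyte left out (7 without Dnmt3L-ADD replicate 6, 5 without Dnmt3a-ADD replicate 1 or 4, 4 without replicate 6). The cause was not tested. RLE normalization, a 1 CPM filter, a robust fit and the mapped class left both counts as they were.

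The replicate numbers did not pair the samples: the correlation of same-numbered oocytes ran from −0.38 to 0.21, over 0.1 in 2 of 8 pairs, and 1 oocyte correlated best with its own number. With the replicate block on the 16 libraries the counts were 9 and 17.

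The excess distance of 0.065 kept its sign throughout but not its side of 0.05. It was 0.072 with the same 500 genes for all pairs (exact permutation p = 0.0500389), 0.040 in the mapped class (p = 0.120), and 0.0386 to 0.1005 with 1 oocyte left out, where 9 of 16 exact p were under 0.05. Differences near 0 changed sign: with the mapped class Dcp1a gave −0.0445 and Serpine2 −0.0335, without replicates 4 and 8 Dnmt1 gave 0.00799 and Tet3, a dioxygenase that oxidizes methylcytosine (−0.03 with all oocytes), gave 0.0112, and Tdrd1 gave −0.00271 (exact test), −0.00253 (16 libraries) and −0.00308 (replicate block). With 1 oocyte left out, Dnmt3a ran from −0.0387 to 0.00561, Dnmt1 from −0.0488 to 0.00497, Dcp1a from −0.0133 to 0.0727, Serpine2 from −0.00944 to 0.0797 and Tdrd1 from −0.0197 to 0.0145. Depth limits genes under 1 CPM most.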
